A study of Mus musculus with 4 samples.

Results

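The 10 genes described here, Csf1r, Cd14, Clec4n, Mrc1, Lyz2, Mmp12, F10, Pla2g7, Irg1 and Cd68, are known for their expression in macrophages and monocytes, and all 10 were found by symbol among the 35275 genes of the deposited count table. They were measured in RNA of splenic T cells from C57BL/6 mice, activated in culture for 3 days with antibodies to CD3 and CD28 and with interleukin-2. The 4 libraries come from Cers6 knockout mice of 8 months, Cers6 knockout mice of 2 months, wild-type mice of 8 months and wild-type mice of 2 months, 1 library per group, and values below follow this order unless pairs are named. Cers6 encodes ceramide synthase 6, which joins fatty acyl chains to a sphingoid base, and the series asks how expression with age depends on it. The labels do not give the deleted part of the gene, the sex of the mice or whether animals were pooled. The series text speaks of duplicates, but with 1 library per group no difference below has a replicate check. The genes were named with their values in these libraries known, so their levels and ratios are a description and carry no test.

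Macrophages and monocytes are phagocytes of the innate immune system. Their growth and survival depend on the receptor encoded by Csf1r, they sense microbes through surface proteins such as CD14 and the lectin dectin-2 (Clec4n), and they digest what they take up in lysosomes rich in CD68 and lysozyme. When activated they also release proteases and lipid-cleaving enzymes and switch on Irg1 (now named Acod1), which makes itaconate from an intermediate of the citric acid cycle. A spleen holds many such cells, and T cells are not known for most of these genes.

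The libraries held 20342672, 18145555, 21886108 and 24239344 counts. Levels are given as CPM, counts scaled to library depth with TMM factors, and intervals are exact 95% intervals that cover counting error only. RNA of the deleted gene, Cers6, measured 3.38 CPM in knockout and 31.997 CPM in wild type at 8 months, and 9.17 CPM in knockout and 13.1 CPM in wild type at 2 months, and with the deleted part unknown this is a partial check of the labels. Single libraries stood apart in several respects, and Cd4 is given with the T cell markers below. The wild-type library at 8 months took 98.6% of its Trbv counts (exact interval 98.5 to 98.7) from the single T cell receptor segment Trbv14, against 5.12% to 7.40% in the other 3 libraries. Xist, the RNA of the inactive X chromosome, stood at 440.5 CPM in wild type at 2 months, against at most 0.171 CPM in the other 3 libraries. The comparison of knockout with wild type at 2 months and that of the 2 knockout ages do not use the wild-type library at 8 months. They stand beside the other comparisons for every gene below.

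The 10 genes were a small part of each library, and most of their RNA was in the wild-type library at 8 months. Summed over the 10 genes, the libraries held 798 counts in knockout and 3896 counts in wild type at 8 months, and 264 counts in knockout and 726 counts in wild type at 2 months. The summed level was 34.2 CPM in knockout and 184 CPM in wild type at 8 months, and 15.3 CPM in knockout and 31.6 CPM in wild type at 2 months. The sum was thus highest in wild type at 8 months and lowest in knockout at 2 months, while the other 2 libraries lay close to each other. In bulk RNA of this kind, fewer cells of a type and less RNA per cell cannot be told apart.

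The label of these genes was set against other macrophage and monocyte markers. Of 16 such markers, several that define tissue macrophages were at or near 0. Fcgr1, a high-affinity IgG receptor, had at most 3 counts in any library, and the scavenger receptor genes Cd163 and Marco had at most 1 count. The complement genes C1qa, C1qb and C1qc had 0, 0 and 1 counts in knockout at 8 months and 0 counts each in knockout at 2 months, against 5, 5 and 0 counts in wild type at 8 months and 2, 8 and 11 counts in wild type at 2 months. Adgre1, a surface marker of mouse macrophages, was detected in all 4 libraries, with 4.75 CPM in knockout and 10.9 CPM in wild type at 8 months and 1.74 CPM in knockout and 3.004 CPM in wild type at 2 months. Spi1, the gene of the myeloid and B cell transcription factor PU.1, measured 14.1 CPM in knockout and 44.1 CPM in wild type at 8 months, and 21.7 CPM in knockout and 31.8 CPM in wild type at 2 months. The data thus hold RNA of some myeloid genes and little or none of others, and with Mrc1 near 0 the 10 genes are no even sample of a macrophage program.

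**Figure D1:**
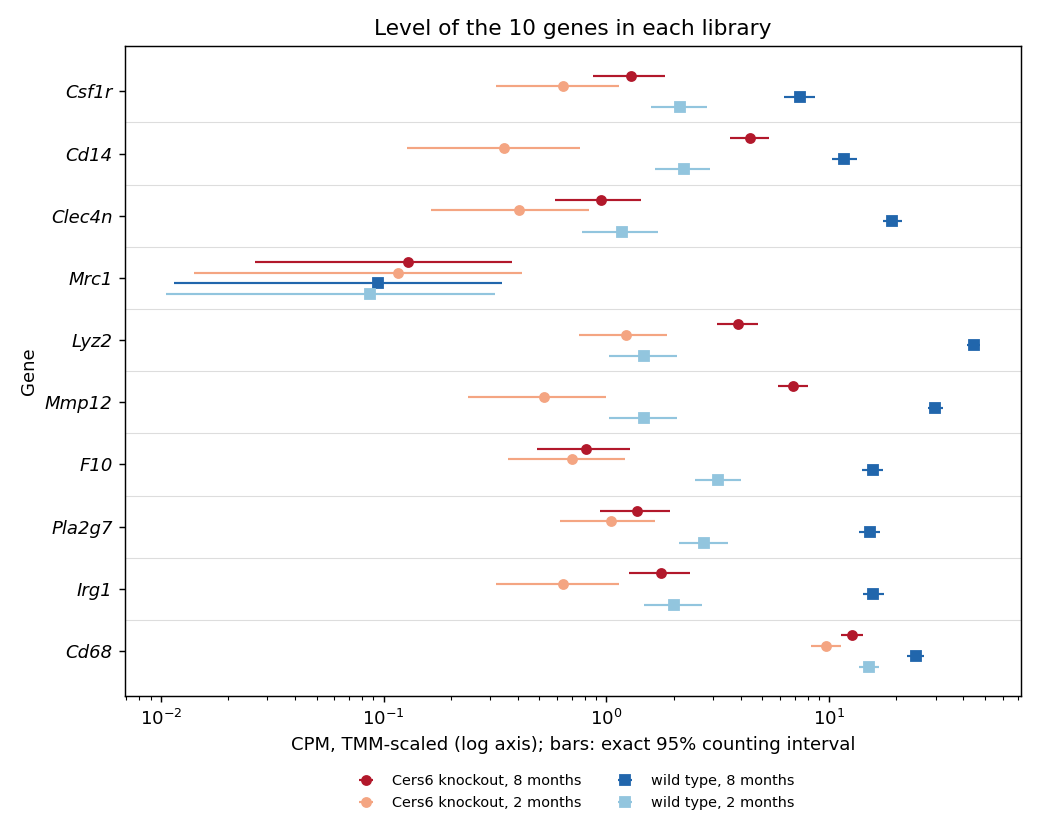
Level of each gene in each library, in TMM-scaled CPM on a log axis, with exact 95% counting intervals as bars. For 9 of the 10 genes the wild-type library at 8 months lies to the right of all others and the knockout library at 2 months lies farthest left, while Mrc1 has 2 or 3 counts in every library.

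Among the surface receptors, Csf1r encodes the receptor for CSF1 and interleukin-34 that macrophages need for growth (ENSMUSG00000024621). It had 30 counts in knockout and 157 counts in wild type at 8 months, and 11 counts in knockout and 49 counts in wild type at 2 months. These counts correspond to 1.28 CPM in knockout and 7.41 CPM in wild type at 8 months, and to 0.639 CPM in knockout and 2.13 CPM in wild type at 2 months. Both knockout libraries lay below both wild-type libraries. At 8 months the log2 ratio of knockout over wild type was -2.53 (-3.14 to -1.96), and the one at 2 months was -1.74 (-2.83 to -0.78).

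Cd14 (ENSMUSG00000051439) encodes the co-receptor that hands bacterial endotoxin to TLR4. It had 103 counts in knockout and 248 counts in wild type at 8 months, and 6 counts in knockout and 51 counts in wild type at 2 months. Here the knockout library at 8 months, with 4.41 CPM, stood above the wild-type library at 2 months, with 2.22 CPM, so the 2 genotypes overlapped across ages. At 2 months the log2 ratio of knockout over wild type was -2.67 (-4.18 to -1.45), the lowest of the 10 genes at that age, and at 8 months it was -1.41 (-1.75 to -1.07). Between the ages Cd14 was 12.7-fold higher at 8 months in knockout and 5.27-fold higher at 8 months in wild type.

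Clec4n encodes dectin-2, a lectin that binds fungal mannans and signals through the Fc receptor gamma chain (ENSMUSG00000023349, GRCm38 chromosome 6, 123229843 to 123247021). It had 22 counts in knockout and 406 counts in wild type at 8 months, and 7 counts in knockout and 27 counts in wild type at 2 months. At 0.942 CPM in knockout and 19.2 CPM in wild type it showed the lowest ratio of the 10 genes at 8 months, log2 -4.35 (-5.04 to -3.73). At 2 months the ratio was log2 -1.53 (-2.98 to -0.30), from counts so low that the interval runs almost to no difference. Only the wild-type library at 8 months held Clec4n at 2 CPM or more.

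Mrc1, the mannose receptor of alternatively activated and resident macrophages (ENSMUSG00000026712, chromosome 2, 14229414 to 14332057), had 3 counts in knockout and 2 counts in wild type at 8 months, and 2 counts in knockout and 2 counts in wild type at 2 months. It thus lay at or under the limit of 3 counts that a count of 0 allows, in all 4 libraries, and no ratio is given. It was the only gene of the 10 that never reached 2 CPM, and it took no part in the pattern of the others.

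Lyz2 encodes the lysozyme of myeloid cells, which cleaves bacterial cell walls (ENSMUSG00000069516, chromosome 10, 117277334 to 117282274). It had 91 counts in knockout and 942 counts in wild type at 8 months, and 21 counts in knockout and 34 counts in wild type at 2 months. The wild-type library at 8 months, at 44.5 CPM, stood far above the other 3 libraries, at 3.89 CPM in knockout at 8 months, 1.22 CPM in knockout at 2 months and 1.48 CPM in wild type at 2 months. The log2 ratio of knockout over wild type was -3.51 (-3.84 to -3.20) at 8 months. At 2 months it was -0.28 (-1.14 to 0.55), an interval that includes 0, so no difference was detectable at this depth. Its paralog Lyz1, whose reads could be shared with Lyz2, was listed at 2, 0, 0 and 0 counts.

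Mmp12, the macrophage elastase (ENSMUSG00000049723, chromosome 9, 7344381 to 7369499), had 161 counts in knockout and 634 counts in wild type at 8 months, and 9 counts in knockout and 34 counts in wild type at 2 months. Both 8-month libraries, at 6.89 CPM in knockout and 29.9 CPM in wild type, lay above both 2-month libraries, at 0.523 CPM in knockout and 1.48 CPM in wild type. The gene was 13.2-fold higher at 8 than at 2 months in knockout and 20.2-fold higher in wild type. At 8 months knockout over wild type stood at log2 -2.12 (-2.38 to -1.87), and the one at 2 months was -1.502 (-2.75 to -0.41).

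F10 encodes coagulation factor X, made mainly in liver and also by some macrophages (ENSMUSG00000031444, chromosome 8, 13037308 to 13056676). It had 19 counts in knockout and 332 counts in wild type at 8 months, and 12 counts in knockout and 73 counts in wild type at 2 months. Both knockout libraries, at 0.813 CPM at 8 months and 0.697 CPM at 2 months, lay below both wild-type libraries, at 15.7 CPM at 8 months and 3.18 CPM at 2 months. For F10 at 8 months the log2 ratio of knockout over wild type was -4.27 (-5.02 to -3.60), and the one at 2 months was -2.19 (-3.21 to -1.30). For 8 over 2 months it was 0.22 (-0.89 to 1.40) in knockout, where no difference was detectable at this depth, and 2.30 (1.93 to 2.69) in wild type.

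Pla2g7 encodes the secreted phospholipase that inactivates platelet-activating factor (ENSMUSG00000023913, chromosome 17, 43568098 to 43612201). It had 32 counts in knockout and 322 counts in wild type at 8 months, and 18 counts in knockout and 63 counts in wild type at 2 months. Like F10, it lay lower in both knockout libraries, at 1.37 CPM at 8 months and 1.05 CPM at 2 months, than in both wild-type libraries, at 15.2 CPM at 8 months and 2.74 CPM at 2 months. Knockout over wild type at 8 months had a log2 ratio of -3.47 (-4.04 to -2.95), and the one at 2 months was -1.39 (-2.24 to -0.62). The knockout ages did not differ beyond counting error (log2 ratio of 8 over 2 months 0.39, interval -0.49 to 1.31), whereas in wild type the gene was 5.54-fold higher at 8 months.

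Irg1 encodes the mitochondrial enzyme that turns cis-aconitate into itaconate in stimulated macrophages (ENSMUSG00000022126, chromosome 14, 103046977 to 103056573). It had 41 counts in knockout and 334 counts in wild type at 8 months, and 11 counts in knockout and 46 counts in wild type at 2 months. Knockout over wild type at 8 months had a log2 ratio of -3.17 (-3.67 to -2.70), and the one at 2 months was -1.65 (-2.75 to -0.68). The knockout library at 8 months, at 1.75 CPM, and the wild-type library at 2 months, at 2.00 CPM, did not differ beyond counting error, and their order was the other way round in the deposited FPKM.

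Cd68 encodes macrosialin, a glycoprotein of late endosomes and lysosomes (ENSMUSG00000018774, chromosome 11, 69664213 to 69666153). It had 296 counts in knockout and 519 counts in wild type at 8 months, and 167 counts in knockout and 347 counts in wild type at 2 months. It varied least of the 9 genes other than Mrc1, by 2.53-fold from the lowest to the highest library, while the other 8 varied by between 11.6-fold (Csf1r) and 57.3-fold (Mmp12). Knockout over wild type at 8 months had a log2 ratio of -0.95 (-1.16 to -0.74), and the one at 2 months was -0.64 (-0.92 to -0.37). At 12.7, 9.70, 24.5 and 15.1 CPM it was the gene of the 10 with the highest level in the 3 libraries other than wild type at 8 months, where Lyz2 and Mmp12 stood above it.

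The proportions among the genes differed between libraries. On the deposited FPKM scale, which divides counts by gene length, Cd68 made up 50.6% of the summed level of the 10 genes in knockout and 19.2% in wild type at 8 months, and 74.0% in knockout and 61.9% in wild type at 2 months. Lyz2 made up 15.1% in knockout and 33.8% in wild type at 8 months, and 9.04% in knockout and 5.89% in wild type at 2 months. Cd14 and Mmp12 took their largest shares in knockout at 8 months, 13.8% and 7.57%, against 7.16% and 6.44% in wild type at that age. F10 took its smallest share there, 1.60%, against 6.02% in wild type at 8 months, 2.61% in knockout at 2 months and 6.399% in wild type at 2 months. The genes therefore did not shift between libraries by one common factor.

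**Figure D2:**
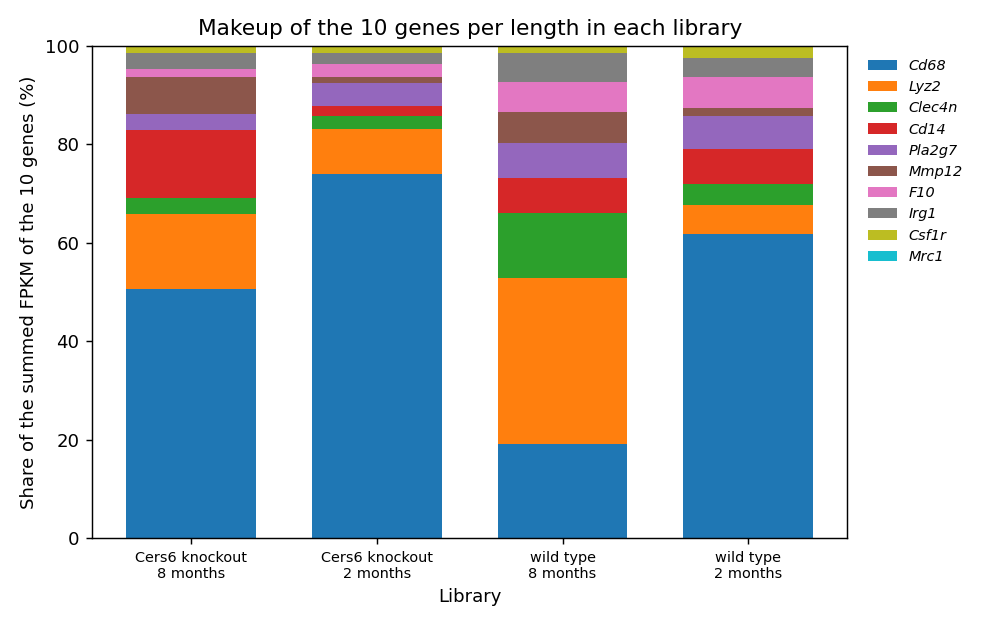
Share of each gene in the summed deposited FPKM of the 10 genes, in percent, for the 4 libraries. Cd68 makes up 74.0% of the bar of knockout at 2 months and 19.2% of that of wild type at 8 months, where Lyz2 makes up 33.8%.

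Set side by side, the 4 comparisons give the following picture for the group. Folds here are differences of log2 CPM (prior count 2), counted from 2-fold upward among the 12133 genes that reached 2 CPM in 1 library or more. Mrc1 did not reach that level, and Clec4n reached it through wild type at 8 months alone. In knockout against wild type at 8 months, 8 of the 10 genes were at least 2-fold lower and 0 higher, where 6.47% of all genes were lower and 10.4% higher, and the median log2 fold of the 10 genes was -2.77 against -0.0047 for all genes. At 2 months, 7 of the 10 genes were at least 2-fold lower and 0 higher, where 2.08% of all genes were lower and 0.923% higher, with a median of -1.35 against -0.0091. At 8 against 2 months, 5 of the 10 genes were at least 2-fold higher in knockout and 0 lower, where 10.3% of all genes were higher and 4.71% lower, with a median of 0.98 against -0.040. In wild type 8 of the 10 genes were at least 2-fold higher at 8 months and 0 lower, where 3.29% of all genes were higher and 2.77% lower, with a median of 2.39 against -0.019. Each library enters 2 of these comparisons, so their counts are not independent, and since the genes were chosen on these libraries nothing is read from the counts against the background.

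**Figure D3:**
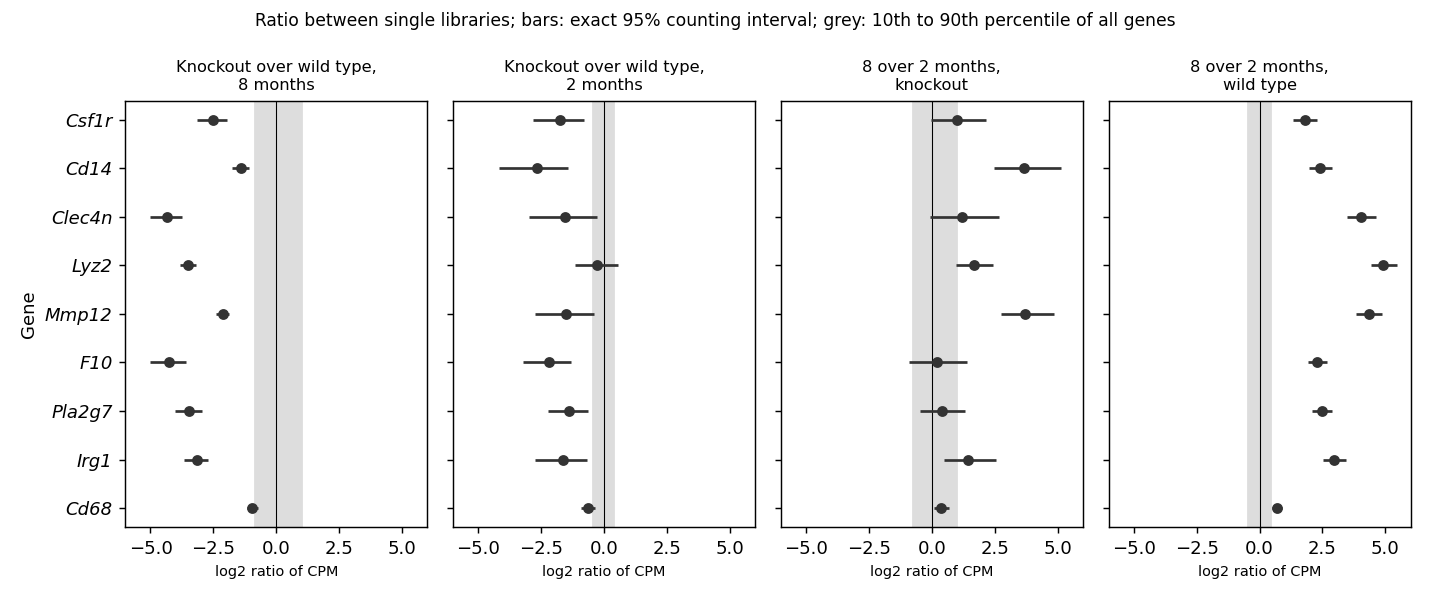
Log2 ratio of CPM between 2 libraries for the 9 genes other than Mrc1, in the 4 comparisons, with exact 95% counting intervals as bars. The grey band runs from the 10th to the 90th percentile of all genes. At 8 months the knockout ratios lie between -4.35 and -0.95, and with age in knockout F10, Pla2g7 and Cd68 stay within 0.39 of 0 while Cd14 and Mmp12 exceed 3.6.

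The order of the 4 libraries was nearly the same throughout. For 9 of the 10 genes the level was highest in wild type at 8 months (23.4% of all genes) and lowest in knockout at 2 months (21% of all genes), and 7% of all genes had both. The choice of the genes fixed this order, and nothing is read from it. In the step from the highest library to the next, counting intervals excluded 0 for each of these genes, Mrc1 aside. The share over all genes was not computed for this step or those below, so nothing is read from them. The 2 middle libraries changed places among genes. Knockout at 8 months stood above wild type at 2 months for Lyz2, Cd14 and Mmp12 beyond counting error, and below it for Pla2g7, Csf1r, F10 and Cd68 beyond counting error. For Cd68 this order held on the CPM scale alone, since the deposited FPKM were 11.8 in knockout at 8 months and 11.6 in wild type at 2 months. For Clec4n and Irg1 these 2 libraries did not differ beyond it. In the lowest step, the interval between the 2 lowest libraries included 0 for Lyz2, Clec4n, Pla2g7, Csf1r and F10.

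The log2 fold of knockout over wild type at 8 months minus that at 2 months was taken from the folds used above. This difference was log2 -3.22 for Lyz2, -2.87 for Clec4n, -2.07 for F10 and for Pla2g7 and -1.58 for Irg1. For Csf1r it was -0.84, for Mmp12 -0.75 and for Cd68 -0.31. Cd14 went the other way, with a difference of 0.997. These differences rest on 4 single libraries and were not tested, and their share over all genes was not computed. The genes were chosen on these libraries, and wild type at 8 months was highest for all but Mrc1, which lowers the folds at 8 months. Nothing is read from the signs. Every genotype ratio at 8 months stands on the wild-type library with the skewed receptor segments, so the part of that library in these values cannot be told apart from age and genotype. The knockout ratios at 2 months do not use it, but they rest on the Xist-high wild-type library of that age. They were below 0 beyond counting error for 8 of the 10 genes, where 26.6% of all genes were, the exceptions being Lyz2 and Mrc1.

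The design allows 1 test, a model with a term for genotype and a term for age and no interaction, so that each library of a genotype counts as its replicate at another age. It was fitted over 13906 genes with edgeR's quasi-likelihood test and leaves 1 residual degree of freedom. Of the 10 genes 9 were in it, all but Mrc1, so Mrc1 could not pass. For genotype, 0 of the 10 genes passed as lower at a Benjamini-Hochberg adjusted p of 0.05, where 0.0216% of all genes did, and 0 as higher, where 0.00719% did. At an unadjusted p under 0.05 stood 9 of the 10 and 1162 of all genes. Fits with 1 library left out drop the other factor and leave a single library in a group. Their calls of the 10 genes are not given, and shifted with the library left out. DESeq2 passed 2 of the 10 as lower for genotype, F10 and Clec4n, beside 10 of all 13906 genes. With limma-voom 3 passed, those 2 and Lyz2, beside 7 of all genes. With no filter beyond 1 count edgeR passed 7 as lower, beside 59 of 21501 genes. With a mean of 5 CPM it passed 3 of 4 tested, beside 32 of 10108 genes. For age, 3 of the 10 genes passed as higher at 8 months, Lyz2, Mmp12 and Cd14, where 0.194% of all genes did, and 0 as lower, where 0.036% did. With median-of-ratios factors only Mmp12 passed as higher for age, beside 16 of all genes. With library size alone as the scaling, 0 of the 10 and 0 of all genes passed for age (edgeR). At an unadjusted p under 0.05 were then 7 of the 10 and 807 of all genes. DESeq2 passed 4 of the 10 as higher for age, beside 45 of all genes, and limma-voom 5, beside 44. With no filter edgeR passed 5, beside 106 of 21501 genes. With a mean of 5 CPM, edgeR passed 3 of 4 tested for age, beside 68 of 10108 genes. As the genes were chosen on these libraries, these counts are given for completeness and support nothing.

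The stretch before the transcription start was read from RefSeq (GRCm38.p6) for 7 of the 10 genes, as a description. The 250 bases before the start were searched on both strands for motifs. The core bound by PU.1 was GAGGAA, and the AP-1 motif was TGANTCA. For the C/EBP family the letters were TTGCNNAA. The TATA box was searched as TATAAA, and longer motifs for NF-kB and for interferon response were included. No base was shared by 2 matches. Of these, 4 windows of 250 bases are given, 5′ to 3′ on the gene's strand, with matches in capitals: those of Lyz2 and Mmp12, the genes with the highest ratios of 8 over 2 months in wild type, of Irg1, the gene nearest to the mean profile, and of Cd68, which varied least.
Lyz2, chr10:117282273-117282522, minus strand: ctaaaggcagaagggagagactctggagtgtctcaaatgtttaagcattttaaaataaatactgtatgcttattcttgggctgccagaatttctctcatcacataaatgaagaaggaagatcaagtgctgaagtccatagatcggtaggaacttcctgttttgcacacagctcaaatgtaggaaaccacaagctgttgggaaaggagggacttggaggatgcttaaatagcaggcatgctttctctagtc
Mmp12, chr9:7344147-7344396, plus strand: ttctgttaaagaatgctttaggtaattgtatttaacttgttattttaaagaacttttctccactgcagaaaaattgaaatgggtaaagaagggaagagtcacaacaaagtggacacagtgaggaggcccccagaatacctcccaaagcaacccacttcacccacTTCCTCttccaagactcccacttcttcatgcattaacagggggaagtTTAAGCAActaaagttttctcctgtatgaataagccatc
Irg1, chr14:103046762-103047011, plus strand: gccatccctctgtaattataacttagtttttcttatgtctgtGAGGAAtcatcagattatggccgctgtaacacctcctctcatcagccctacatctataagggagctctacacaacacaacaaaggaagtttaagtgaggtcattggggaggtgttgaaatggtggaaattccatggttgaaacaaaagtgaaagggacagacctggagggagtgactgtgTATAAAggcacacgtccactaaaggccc
Cd68, chr11:69666171-69666420, minus strand: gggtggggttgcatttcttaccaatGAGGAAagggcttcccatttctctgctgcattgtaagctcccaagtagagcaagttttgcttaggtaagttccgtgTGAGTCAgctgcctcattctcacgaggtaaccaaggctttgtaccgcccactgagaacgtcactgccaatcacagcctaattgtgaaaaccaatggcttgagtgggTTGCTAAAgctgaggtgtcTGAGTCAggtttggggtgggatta

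The windows held no motif in common. GAGGAA was found in 4 of the 7 windows (Mmp12, Irg1, Cd68 and Mrc1), and 23.3% of all 32851 windows of this length hold it. TGANTCA was found in 1 window, that of Cd68, at 149 and at 24 bases before the RefSeq start, against 6.75% of all windows. TTGCNNAA was found in 2 (Mmp12 and Cd68), against 9.56%, and TATAAA in 1 (Irg1, 28 bases before the RefSeq start), against 12.4%. The NF-kB and interferon response motifs were found in none of the 7 windows, and 0.98% and 2.98% of all windows hold them. The window of Lyz2 held none of the 6 motifs, like those of Pla2g7 and F10. A match describes letters only and shows no bound factor.

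Genes outside the 10 with the most similar profile were sought by the root mean square distance of centered log2 CPM over the 4 libraries from the mean profile of the 10 genes, among 9463 genes with a mean of 5 CPM or more. The nearest was Clec4e, at a distance of 0.12, which encodes the lectin Mincle of activated macrophages and measured 4.37 CPM in knockout and 20.3 CPM in wild type at 8 months, and 1.74 CPM in knockout and 3.96 CPM in wild type at 2 months. It was followed by Lad1, Gpnmb, the chemokine Ccl9, the tetraspanin Cd63, the basophil protease Mcpt8, Slc15a3, the actin bundler Fscn1, the low-affinity IgE receptor Fcer2a and the amino acid oxidase Il4i1, at distances of up to 0.51. Of the 10 genes themselves, Irg1 lay nearest to their mean, at 0.26, and Mmp12, Cd68 and Mrc1 lay farthest, at 0.99, 0.90 and 1.43. The nearest genes thus include a basophil protease and the B cell gene Fcer2a beside macrophage genes.

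Markers of other cells moved with the 10 genes in part. The summed level of 10 neutrophil markers was 6.29 CPM in knockout and 106 CPM in wild type at 8 months, and 0.464 CPM in knockout and 1.92 CPM in wild type at 2 months, an order of libraries in which wild type at 8 months was highest and knockout at 2 months lowest. Of these, 5 were listed at 0 in knockout at 2 months and 2 in wild type at 2 months. The 4 eosinophil markers summed to 5.74 CPM in knockout and 18.1 CPM in wild type at 8 months, and to 0.697 CPM in knockout and 3.88 CPM in wild type at 2 months, the same order of libraries again. In wild type at 8 months Prg2 gave 14.7 CPM of this sum. Prg2 and Epx were highest in that library and lowest in knockout at 2 months. Siglecf went the other way at 8 months, with 1.80 CPM in knockout and 0.283 CPM in wild type. Ccr3 was low throughout, between 0.174 and 0.305 CPM. The 6 mast cell and basophil markers summed to 41.2 CPM in knockout and 99.2 CPM in wild type at 8 months, and to 46.6 CPM in knockout and 36.7 CPM in wild type at 2 months, mostly from Kit. Without Kit the other 5 summed to 13.7 CPM in knockout and 35.8 CPM in wild type at 8 months, and to 3.31 CPM in knockout and 5.14 CPM in wild type at 2 months, the order of the 10 genes. Kit itself measured 27.6 CPM in knockout and 63.3 CPM in wild type at 8 months. At 2 months it measured 43.3 CPM in knockout and 31.5 CPM in wild type, so leaving it out shapes this order. The 4 platelet markers were instead highest in knockout at 8 months, with 31.6 CPM, against 28.5 CPM in wild type at that age, and measured 4.12 CPM in knockout and 10.01 CPM in wild type at 2 months.

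Among the markers of lymphocytes and other cells, the 10 T cell markers summed to 2511 CPM in knockout and 2797 CPM in wild type at 8 months, and to 3259 CPM in knockout and 3089 CPM in wild type at 2 months. Within this sum Cd4 measured 202 CPM in knockout and 24.6 CPM in wild type at 8 months. At 2 months it measured 127 CPM in knockout and 115 CPM in wild type. Cd8a was highest in wild type at 8 months, at 556 CPM. The 6 B cell markers summed to 1200 CPM in knockout and 3166 CPM in wild type at 8 months, and to 1909 CPM in knockout and 2215 CPM in wild type at 2 months, so the libraries held RNA of cells other than T cells. The 7 dendritic cell markers summed to 705 CPM in knockout and 639 CPM in wild type at 8 months, and to 823 CPM in knockout and 725 CPM in wild type at 2 months, with Clec9a and Siglech at most 2 counts. Nearly all of this was Ccr7, with 679 CPM in knockout and 619 CPM in wild type at 8 months. At 2 months Ccr7 measured 807 CPM in knockout and 703 CPM in wild type. The 3 NK cell markers summed to 13.7 CPM in knockout and 5.24 CPM in wild type at 8 months, and to 16.1 CPM in knockout and 26.6 CPM in wild type at 2 months. Eomes gave most of it, with 12.7 CPM in knockout and 4.77 CPM in wild type at 8 months. At 2 months Eomes measured 13.2 CPM in knockout and 22.5 CPM in wild type. The 6 erythroid markers summed to 57.4 CPM in knockout and 36.8 CPM in wild type at 8 months, and to 22.5 CPM in knockout and 15.9 CPM in wild type at 2 months. The 16 other macrophage and monocyte markers summed to 91.6 CPM in knockout and 96.0 CPM in wild type at 8 months, and to 170 CPM in knockout and 217 CPM in wild type at 2 months, and Ly6c2 and Ccr2, which T cells express too, gave most of it in the libraries other than wild type at 8 months. The other 14 of these markers summed to 28.9 CPM in knockout and 75.8 CPM in wild type at 8 months, and to 31.1 CPM in knockout and 42.9 CPM in wild type at 2 months. This sum was highest in wild type at 8 months like the 10 genes, but lowest in knockout at 8 months, unlike them. Its largest part was Spi1, which B cells express too, with 44.1 CPM in wild type at 8 months. Ly6c2 and Ccr2, left out here, were each lowest in that library, so leaving them out shapes this order. The part of these cells in the levels of the 10 genes was not tested.

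**Figure D4:**
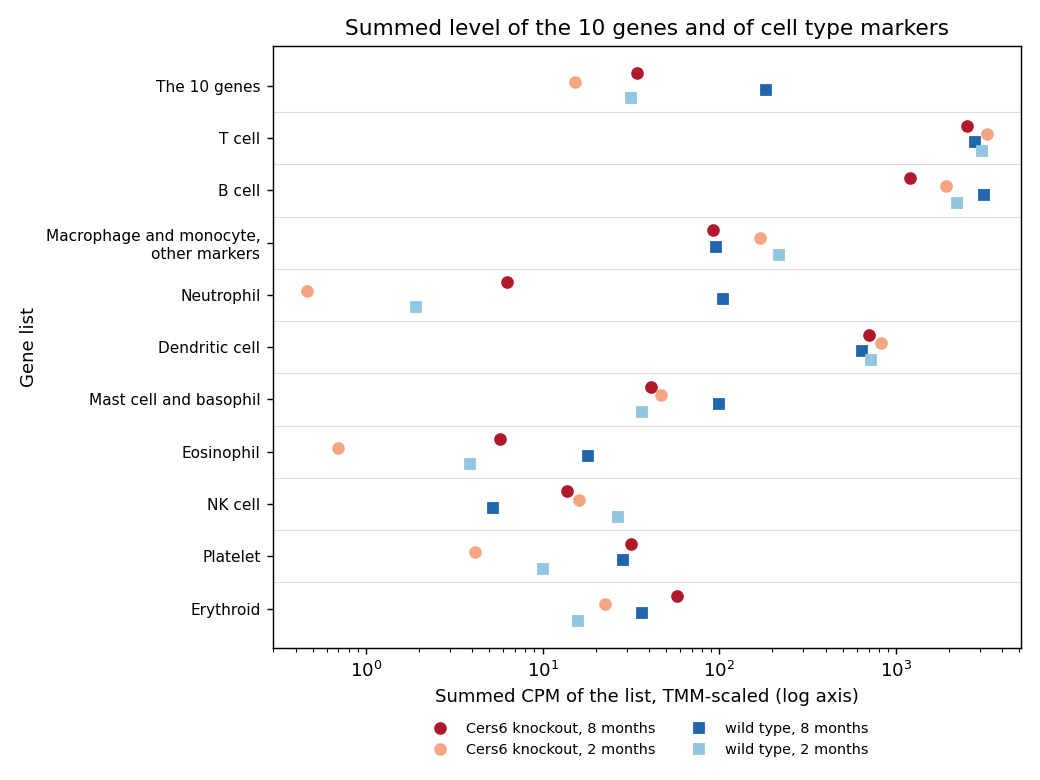
Summed TMM-scaled CPM, on a log axis, of the 10 genes and of markers of other cell types in the 4 libraries. Summed neutrophil and eosinophil markers share the order of the 10 genes, with wild type at 8 months at 106 and 18.1 CPM. That eosinophil value is mostly Prg2, and Siglecf goes the other way at 8 months. Summed T cell markers lie between 2511 and 3259 CPM in all 4 libraries, but Cd4 alone is lowest in wild type at 8 months, at 24.6 CPM.

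The 14 lists of related genes held 201 genes without the 10, of which 200 were found and 135 reached 2 CPM. Across these 135, the median log2 fold of knockout over wild type was -0.38 at 8 months and -0.24 at 2 months, and with age it was 0.12 in knockout and 0.34 in wild type. At 8 months 34 of the 135 were at least 2-fold lower and 10 at least 2-fold higher in knockout, where 6.47% of all genes were lower and 10.4% higher. At 2 months 18 were lower and 4 higher, where 2.08% of all genes were lower and 0.923% higher. The lists were chosen with earlier results of these data known, so nothing is read from these counts. Of the 135, 18 reached 2 CPM in wild type at 8 months alone and so had to be lower in the other libraries. Calls below come from the additive model over all genes (edgeR quasi-likelihood, Benjamini-Hochberg adjusted), and fits with 1 library left out drop the other factor. Of the 152 related genes in the additive model, 1 passed for genotype, Il1rn, as lower, where 0.0216% of all genes did. For age 9 passed, 8 as higher, where 0.194% of all genes did, and Ly6c2 as lower, where 0.036% did. All 9 age calls ended with library size alone as the scaling and without either 2-month library.

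In the CSF1 list, Csf1 itself, the ligand of the receptor encoded by Csf1r, measured 17.2 CPM in knockout and 23.3 CPM in wild type at 8 months, and 18.2 CPM in knockout and 19.5 CPM in wild type at 2 months. The other ligand, Il34, named after its values were seen, had at most 2 counts. The common beta chain gene Csf2rb of the receptors for interleukin-3, interleukin-5 and GM-CSF measured 82.0 CPM in knockout and 65.3 CPM in wild type at 8 months, and 25.0 CPM in knockout and 29.2 CPM in wild type at 2 months. It rose with age by log2 1.45 (edgeR adjusted p = 0.0181, and 0.058 with median-of-ratios factors). Its close paralog Csf2rb2, with which it may share reads, measured 23.2 CPM in knockout and 23.3 CPM in wild type at 8 months, and 4.59 CPM in knockout and 7.45 CPM in wild type at 2 months, and rose by log2 2.00 (edgeR adjusted p = 0.0151). Over the 4 genes of this list at 2 CPM or more, knockout over wild type medians were 0.08 at 8 months and -0.40 at 2 months, and 0 were at 2-fold.

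In the endotoxin sensing list that belongs with Cd14, 0 of 11 genes were at 2-fold between the genotypes at either age (medians -0.43 and -0.01). Ly86, Tlr1 and Myd88, its most abundant genes, had log2 folds of -0.42, -0.43 and -0.81 at 8 months and -0.26, -0.21 and 0.04 at 2 months. Tlr4, the receptor that CD14 serves, measured 4.71 CPM in knockout and 6.09 CPM in wild type at 8 months, and 5.40 CPM in knockout and 6.27 CPM in wild type at 2 months (named after its values were seen). Cd14 itself varied 33.6-fold over the libraries.

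The C-type lectin list, to which Clec4n would belong, had a median of log2 -2.20 at 8 months and -0.79 at 2 months over 7 genes, with 5 genes at least 2-fold lower at 8 months, and 2 lower and 1 higher at 2 months. As 3 of the 7 reached 2 CPM in wild type at 8 months alone, the filter itself lowers the median at that age, and nothing is read from it. Clec4e had log2 folds of -2.20 and -1.14. Fcer1g, the signaling chain that dectin-2 uses, measured 4.62 CPM in knockout and 19.4 CPM in wild type at 8 months, and 5.05 CPM in knockout and 8.80 CPM in wild type at 2 months. The kinase gene Syk downstream of it, also used by lymphocytes, measured 317 CPM in knockout and 301 CPM in wild type at 8 months, and 300.5 CPM in knockout and 295 CPM in wild type at 2 months. Clec4d, a related lectin receptor that was named after its values were seen, had 28 counts in knockout and 275 counts in wild type at 8 months, and 8 counts in knockout and 24 counts in wild type at 2 months.

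Over 4 scavenger receptor genes the medians were 0.14 at 8 months and -0.04 at 2 months, and Scarb1, Axl and Cd36 had log2 folds between -0.53 and 0.35 in both comparisons. Among the Fc receptors, complement genes and integrins (6 genes), the medians were -0.50 and 0.07. Itgam, the CD11b chain of myeloid cells, measured 7.53 CPM in knockout and 16.7 CPM in wild type at 8 months, and 6.91 CPM in knockout and 6.10 CPM in wild type at 2 months, while its partner Itgb2, shared by all leukocytes, had log2 folds of -0.14 and -0.04, and Fcgr2b had -0.07 and -0.24.

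Of the myeloid transcription factors (10 genes, medians -0.24 and -0.33), Irf8 had log2 folds of 0.56 at 8 months and -0.13 at 2 months, Irf5 -0.95 and -0.38, and the lysosomal regulator Tfeb -0.66 and -0.29. The lysosomal list beside Cd68 (18 genes) had medians of -0.36 and -0.12, with 2 genes at least 2-fold lower at 8 months and 0 at 2 months. Psap, Npc2 and Ctsd, abundant in most cells, had log2 folds of -0.38, -0.34 and 0.16 at 8 months and -0.10, -0.08 and -0.13 at 2 months. Citric acid cycle genes beside Irg1 (14 genes) had medians of -0.41 and -0.03 with 0 at 2-fold. Of these, Sdha, a subunit of succinate dehydrogenase, which itaconate inhibits, had -0.72 at 8 months and 0.11 at 2 months.

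The 6 metalloproteinase and inhibitor genes had a median of -1.51 at 8 months, with 4 at least 2-fold lower and 1 higher, and of -0.92 at 2 months, with 2 lower. Here 3 of the 6 reached 2 CPM in wild type at 8 months alone, so the low median at that age is in part set by the filter. Mmp9 had 9 counts in knockout and 337 counts in wild type at 8 months, and 0 counts in knockout and 3 counts in wild type at 2 months. Mmp8, the neutrophil collagenase, had 24 counts in knockout and 164 counts in wild type at 8 months, and 0 counts in knockout and 4 counts in wild type at 2 months, and rose with age (edgeR adjusted p = 0.0113). Both genes are known from neutrophils. The summed neutrophil markers had the same order of libraries, and in wild type at 8 months S100a8 and S100a9 gave most of that sum. The part of neutrophils in the levels of Mmp8 and Mmp9 was not tested. Timp2 had log2 folds of -0.60 and 0.54, and Adam8, a sheddase of leukocytes, had 1.16 at 8 months and -0.95 at 2 months.

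Over 9 coagulation genes beside F10 the median was 0.43 at 8 months and -0.41 at 2 months, with 1 gene at least 2-fold lower and 4 higher at 8 months. The thrombin receptor gene F2r measured 54.0 CPM in knockout and 25.2 CPM in wild type at 8 months, and 49.99 CPM in knockout and 41.3 CPM in wild type at 2 months, and the related F2rl1 had log2 folds of 1.76 and 0.44. Plaur, the urokinase receptor, had -0.68 and -0.01. Serpinb2, an inhibitor of urokinase, had 90 counts in knockout and 91 counts in wild type at 8 months, and 1 count in knockout and 5 counts in wild type at 2 months, and rose with age (edgeR adjusted p = 0.0151). In the list of platelet-activating factor and eicosanoid genes beside Pla2g7 (14 genes, medians -0.06 and -0.23), the intracellular acetylhydrolase subunit genes Pafah1b1 and Pafah1b3 had -0.06 and -1.17 at 8 months and 0.12 and -0.22 at 2 months, and Lta4h had -0.06 and 0.03.

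Over 13 inflammatory genes the medians were log2 1.82 in knockout and 1.57 in wild type for 8 over 2 months, with 11 and 8 genes at least 2-fold higher and 0 lower in either, and -0.18 at 8 months and -0.88 at 2 months for knockout over wild type. Over all genes, 10.3% in knockout and 3.29% in wild type were at least 2-fold higher at 8 months. Il1a, Il6, Cxcl3 and Nlrp3 reached 2 CPM in 8-month libraries alone. The counts and medians with age are therefore in part set by the filter. Cxcl2 measured 8.26 CPM in knockout and 19.9 CPM in wild type at 8 months, and 1.22 CPM in knockout and 2.74 CPM in wild type at 2 months, and rose with age by log2 2.83 (edgeR adjusted p = 0.00676). Cxcl3 had 104 counts in knockout and 284 counts in wild type at 8 months, and 3 counts in knockout and 15 counts in wild type at 2 months, and rose by log2 4.47 (edgeR adjusted p = 0.00183). Both genes encode chemokines that attract neutrophils. Ccl9 rose by log2 2.78 (edgeR adjusted p = 0.0157), and by log2 1.08 in a fit of age alone without wild type at 8 months.

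Il1rn, the interleukin-1 receptor antagonist, was the one related gene that passed for both factors. It measured 3.68 CPM in knockout and 35.8 CPM in wild type at 8 months, and 0.755 CPM in knockout and 4.31 CPM in wild type at 2 months. It fell by 2.96 on the log2 scale in knockout (edgeR adjusted p = 0.0103), and rose with age by log2 2.76 (edgeR adjusted p = 0.00534). Without wild type at 8 months the genotype effect was log2 -0.94 (adjusted p = 1, edgeR) and the age effect 0.50 (adjusted p = 0.464, edgeR). The genotype call also ended without knockout at 8 months (log2 -4.72, adjusted p = 0.594, edgeR), without knockout at 2 months (log2 -2.45, adjusted p = 0.285, edgeR) and with library size alone (adjusted p = 0.676, edgeR). Tnf, Ccl3 and Ccl4, which activated T cells also make, had knockout over wild type log2 folds of 0.18, -0.18 and 0.15 at 8 months and -0.21, -0.48 and -0.90 at 2 months.

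Of the genes of alternative activation that would go with Mrc1 (8 genes at 2 CPM or more of 13), the medians were -1.47 at 8 months and -0.59 at 2 months, and 4 of the 8 reached 2 CPM in wild type at 8 months alone. Named after their values were seen, Retnla and Chil4 were listed at 0 in all 4 libraries. Chil3, likewise, had 0 counts in knockout and 141 counts in wild type at 8 months, and 1 count in knockout and 3 counts in wild type at 2 months. Apoe measured 41.0 CPM in knockout and 89.6 CPM in wild type at 8 months, and 33.7 CPM in knockout and 39.7 CPM in wild type at 2 months, Il10 had log2 folds of 1.23 and -0.62, and Il4ra had 0.17 and -0.01. Among 12 other monocyte and macrophage surface genes (medians -0.54 and -0.56), Ly6c2, a marker of inflammatory monocytes that memory T cells share, measured 49.4 CPM in knockout and 14.6 CPM in wild type at 8 months, and 127 CPM in knockout and 160 CPM in wild type at 2 months. It fell by 2.38 on the log2 scale with age (edgeR adjusted p = 0.00992), against the direction of the 10 genes. Ms4a6c had 0.40 and -0.41, and Lilrb4, which may share reads with a close paralog, -0.73 and -0.94.

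**Figure D5:**
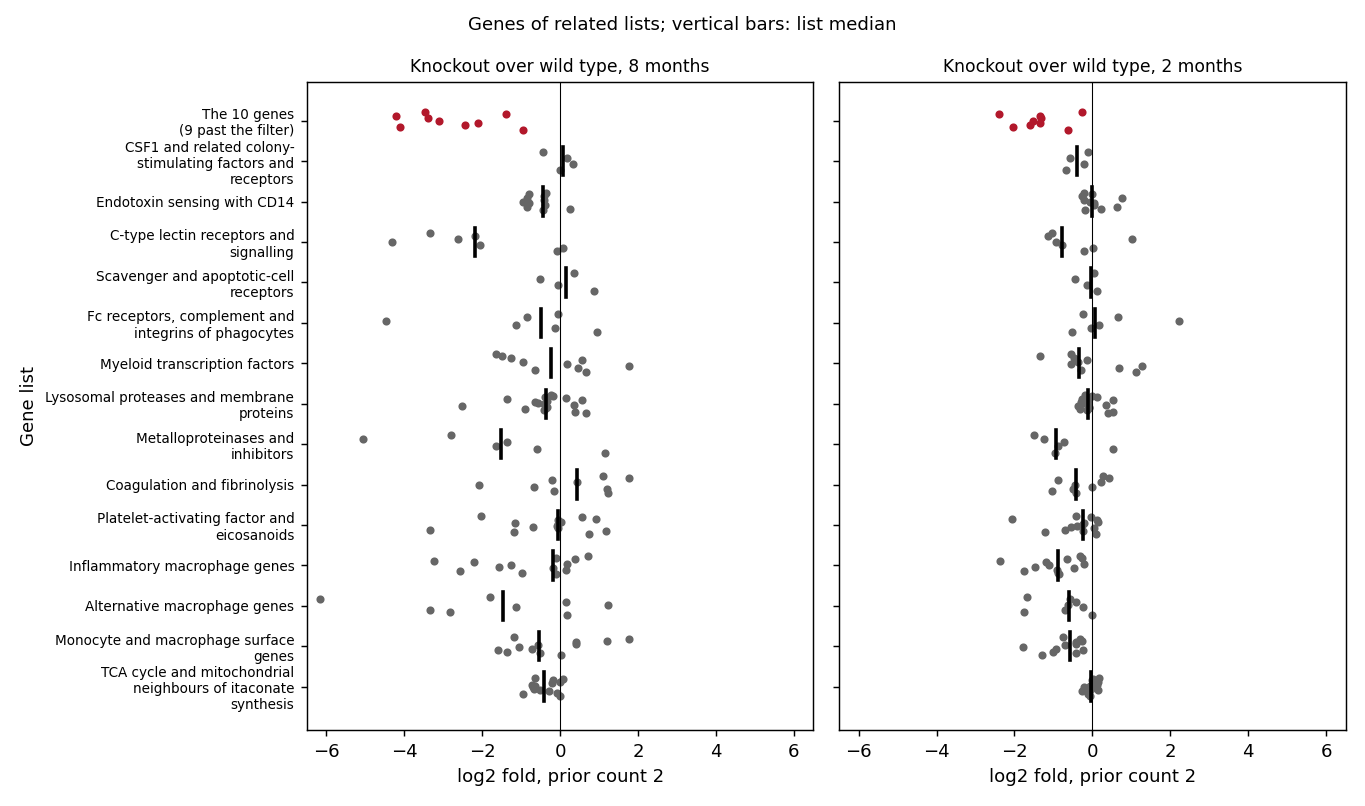
Log2 fold of knockout over wild type at 8 months (left) and 2 months (right) for single genes of the 14 related lists, with vertical bars at list medians, and for the 9 of the 10 genes that reach 2 CPM (top, no median drawn). At 8 months the C-type lectin, metalloproteinase and alternative macrophage lists have medians of -2.20, -1.51 and -1.47, but 3 of 7, 3 of 6 and 4 of 8 of their genes reached 2 CPM in wild type at 8 months alone, while the scavenger receptor list has 0.14.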

How the data were processed

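RNA-seq of 4 libraries was analysed, grouped by the labels. The authors deposited raw counts of reads per gene and FPKM values, per the file headers. STAR, CASAVA, mm10 and GRCm38 appear as tools and builds, per the submitters' processing notes. The sources used here do not say how reads were assigned to genes or whether strand was used, so reads of overlapping or antisense genes cannot be told apart. The deposited FPKM equal counts divided by gene length and library total. Levels and ratios were computed with TMM factors of 1.15, 0.949, 0.968 and 0.947 for knockout at 8 and 2 months and wild type at 8 and 2 months (edgeR 4.0.16, R 4.3.3). Count intervals are exact Poisson and ratio intervals exact binomial (scipy 1.17.1, 95%). The limit for a gene at 0, 3 counts, is 0.128 to 0.174 CPM. The additive test of genotype and age was edgeR's quasi-likelihood test with filterByExpr and Benjamini-Hochberg adjustment at 0.05. The fit had 1 residual and 15.4 prior degrees of freedom, and was checked on simulated data. Related genes named are the 3 most abundant of each list, genes past the test and genes nearest in profile. Some genes under this rule are not reported here. The 10 genes, the lists and the tests were chosen with earlier results of these data known. Alternatives were other scaling, prior counts of 0.5 and 10, other filters, DESeq2 1.42.0, limma-voom (limma 3.58.1) and each library left out. Of the 201 related genes, 200 matched by symbol or identifier.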

Additional observations from a re-analysis of the deposited data

Results flagged for a closer look

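Looked at were the 10 genes, Cers6 and the related genes named for their abundance or their test, not every gene of the lists. For 4 of these, the 2 differences under 1 comparison pointed in opposite directions, each beyond counting error and at least 1 beyond 2-fold. None belonged to the 10 genes, and with 1 library per group none of these opposite directions was tested.

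Adam8 had a log2 fold of knockout over wild type of 1.16 at 8 months and -0.95 at 2 months, and of 8 over 2 months of 0.52 in knockout and -1.59 in wild type. Il10 had knockout over wild type folds of 1.23 at 8 months and -0.62 at 2 months. Ly6c2 had 1.75 at 8 months and -0.33 at 2 months. Cers6 itself had a log2 fold of 8 over 2 months of -1.41 in knockout and 1.28 in wild type.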

How the results depend on the processing

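Of 160 ratios of single genes among the 10 under 4 alternatives of scaling and prior count, 0 changed direction beyond counting error, and 2 left their counting interval, both with library size alone at 8 months (knockout over wild type log2 -1.86 for Mmp12 and -0.70 for Cd68). The median of the 10 genes ranged from -2.83 to -2.52 for knockout over wild type at 8 months, -1.47 to -1.03 at 2 months, and with age from 0.67 to 1.23 in knockout and 2.23 to 2.42 in wild type. Counts of the 10 genes at 2-fold stayed within 1.5 times of those reported. Calls of the additive model did not hold steady. For genotype, 1 higher and 3 lower became 0 higher with median-of-ratios factors, 0 and 0 with library size alone, 76 and 59 with no filter, 69 and 32 with a mean of 5 CPM, 8 and 10 with DESeq2, 5 and 7 with limma-voom, and 0 to 146 higher and 0 to 326 lower with 1 library left out. For age, 27 higher and 5 lower became 16 higher with median-of-ratios factors, 0 and 0 with library size alone, 106 and 93 with no filter, 68 and 58 with a mean of 5 CPM, 45 and 15 with DESeq2, 44 and 11 with limma-voom, and 0 to 1719 higher and 0 to 1728 lower with 1 library left out, with the other factor dropped and a lone library assumed to vary like the rest. Over all genes at 2-fold, library size alone gave 430 lower and 2000 higher for knockout over wild type at 8 months and 278 lower and 1958 higher for age in knockout. A prior count of 10 gave 125 lower and 57 higher for knockout at 2 months. No filter gave, lower and higher, 2577 and 3063 for knockout over wild type at 8 months, 1400 and 1110 at 2 months, 1455 and 3444 for age in knockout and 1354 and 2511 in wild type. A mean of 5 CPM gave 620 higher for knockout at 8 months, 47 lower and 36 higher at 2 months, 500 higher for age in knockout, and 150 lower and 135 higher in wild type. The cause of these shifts was not tested. Of the 10 nearest genes, 9 were also nearest with a prior count of 10. Counts under 20 limit most 2-month knockout values. No paired analysis was possible because each group has 1 library.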
